A study of Triticum aestivum with 15 samples.

Results

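The plastid gene regions described here are represented on the Affymetrix Wheat Genome Array by 6 clusters of probe sets, whose identifiers begin with TaAffx.128795, TaAffx.128617, TaAffx.128896, TaAffx.128565, TaAffx.48564 and TaAffx.109850. All 52 probe sets of these clusters were taken as members, out of 61179 probe sets of the array that are not controls. The clusters themselves were selected on measured values, because each holds at least 1 probe set of a plastid gene that changed in TH237, T183 or T195 against its euplasmic control. For the members, those 3 comparisons are therefore a description only, and whether a member passed the array-wide threshold in them supports nothing. T20 against Chris and T183 against T195 were not used in the choice, and adjusted p-values are given for them. Both of these share arrays with the comparisons that chose the clusters.

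Leaf RNA was hybridized from 3 alloplasmic and 2 euplasmic lines of bread wheat (Triticum aestivum), with 3 arrays per line. TH237 combines the cytoplasm of Hordeum chilense accession H7 with the nuclear genome of T20, and its control T20 carries wheat cytoplasm. T183 has the cytoplasm of Aegilops uniaristata, T195 that of Aegilops tauschii (Aegilops squarrosa), and both have the nuclear genome of cv. Chris, which with its own wheat cytoplasm is their common control. TH237 had been backcrossed to T20 fewer times than T183 and T195 to Chris. All arrays were made from the second leaf, fully expanded, of plants 14 days old under the higher light of the study, bulked by pot, and were untreated otherwise. The 3 Chris arrays serve as control for T183 and for T195, and any error in them enters both comparisons.

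Plastids have a small genome of their own that passes through the mother in wheat, so a line with an alien cytoplasm carries the plastid genome of another species. The genome codes for parts of the photosystems, of the ATP synthase and of the NDH complex of cyclic electron transport, for ribosomal proteins of the plastid and for a maturase that helps to splice plastid introns. The genes lie close together and are transcribed in groups as long precursor RNAs that are then cut and spliced. A cluster of the array can therefore hold probe sets of neighbouring genes and of the sequence between them. The labelling of the study started from polyadenylated RNA, which makes up a small share of plastid transcripts, and the probes were designed on wheat sequences. How well each probe matches the cytoplasms of H. chilense, Ae. uniaristata and Ae. tauschii was not measured, so that a transcript that is less abundant and one that the probes bind less well cannot be told apart.

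Of the 52 members, 10 have a gene name from the annotation of the study. They are rps12 and an ABC transporter permease in TaAffx.128795, ndhF and rpl32 in TaAffx.128617, rpl2, rpl16 and rpl23 in TaAffx.128896, CF0 subunit I (a part of the ATP synthase) in TaAffx.128565, psbM in TaAffx.48564 and matK in TaAffx.109850. The name of the permease is used here as a label, and whether its probe set reads such a gene was not checked. In the platform annotation 1 further member, TaAffx.128896.17.S1_s_at, is assigned to a gene with the synonym rbcL. The remaining members carry no name and are called by their identifiers. In these, the ending _s_at marks a probe set that several transcripts share and _x_at one with probes that can bind other sequences.

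Signals in the text are MAS 5.0 values on the linear scale. A member was tested when its signal lay above the 55th percentile of the array on at least 3 of the 15 arrays. Differences are on a log2 scale after 16 was added to each signal, with the standard error of the limma model. The words called higher and called lower stand for a difference of at least 2-fold with a p of at most 0.05 after Benjamini-Hochberg adjustment over all probe sets tested. In the 3 comparisons that chose the clusters these words only label where a member lies relative to that threshold, which the choice itself favoured. The filter kept 34 of the 52 members. Of these, 25 lay above the percentile on all 15 arrays and each of the others on at least 7, so that no member entered through 1 line alone.

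The 18 members left out had signals of at most 207 on any array, and 16 of them were above the percentile on no array. Nearest to the filter on its dim side was TaAffx.128617.10.A1_x_at, with a mean signal of 71.1 over the 15 arrays and 2 arrays above the percentile. Nearest on its bright side was TaAffx.128617.14.S1_x_at, with a mean signal of 104 and 7 arrays above it. By cluster the tested members numbered 6 of 10 in TaAffx.128795, 9 of 13 in TaAffx.128617, 11 of 17 in TaAffx.128896, 4 of 7 in TaAffx.128565, 2 of 3 in TaAffx.48564 and 2 of 2 in TaAffx.109850. Within a cluster the mean signals of tested members spread widely, from 160 to 12049 in TaAffx.128795, from 104 to 4164 in TaAffx.128617, from 515 to 12956 in TaAffx.128896, from 1939 to 28787 in TaAffx.128565, from 8027 to 28059 in TaAffx.48564 and from 367 to 2010 in TaAffx.109850. Because probes differ in how strongly they bind, this spread describes the probe sets and gives no order of transcript amounts.

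Across the array, 1.35% of the probe sets tested were called higher and 0.925% lower in TH237 than in T20. For T183 against Chris these shares were 0.0254% and 0.0982%, and for T195 against Chris 0.0317% and 0.222%. Among the 34 members tested, TH237 had 2 called higher and 10 lower, T183 had 0 higher and 4 lower, and T195 had 0 higher and 5 lower. Since these comparisons chose the clusters, the counts are no evidence of change and nothing is read from their distance to the background. At an unadjusted p of at most 0.05 and 2-fold, limma listed 3 members as higher and 5 as lower in T183. It listed 0 as higher and 9 as lower in T195, and 5 as higher and 11 as lower in TH237. Over all 31555 probe sets tested, the numbers higher and lower were 130 and 300 in T183, 132 and 536 in T195, and 764 and 594 in TH237. These counts too come from the comparisons that chose the clusters. After adjustment the methods' t-test, run here on the MAS 5.0 values, called 0 members in TH237, 1 in T183 and 0 in T195. The 1 call in T183 was not a higher one, and so few calls say nothing of direction. In all, 12 members were called in at least 1 of the 3 alloplasmic lines and 22 in none. How many of all probe sets tested were called in at least 1 line, or in several, was not counted. Of the 12 members, 3 were called in every line, all lower (rps12, the permease and ndhF), 3 in 2 lines and 6 in TH237 alone. The 3 called in every line are all _x_at probe sets, with probes that can bind other sequences. By ending, 6 of 8 tested _x_at members were called in at least 1 line, against 3 of 15 with _at and 3 of 11 with _s_at. These counts were not made over all probe sets tested and are a description only.

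Within each cluster called members stood beside members that were not called. A called member in each cluster was favoured by the choice, which asked for at least 1 changed probe set. The share of all probe sets called in at least 1 of the 3 comparisons was not counted, so the counts by cluster are a description only. Of the tested members, 2 of 6 in TaAffx.128795, 3 of 9 in TaAffx.128617, 3 of 11 in TaAffx.128896, 2 of 4 in TaAffx.128565, 1 of 2 in TaAffx.48564 and 1 of 2 in TaAffx.109850 were called in at least 1 alloplasmic line. For the 34 members the median differences were -0.18 (TH237), -0.17 (T183) and -0.34 (T195), against medians of 0, -0.01 and -0.01 over all 31555 probe sets tested. Differences under 2-fold were found for 50% of the members in TH237, 73.5% in T183 and 67.6% in T195, where over all probe sets tested the shares were 95.1%, 98.3% and 97.4%. These medians and shares come from the comparisons that chose the clusters, so nothing is read from their distance to the array-wide values. The members also spread more between replicate arrays, with a median residual SD of 0.55 against 0.29 for the other probe sets tested.

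The ribosomal proteins of the small subunit are represented by rps12, whose messenger RNA is joined from separately transcribed pieces. The rps12 probe set TaAffx.128795.10.S1_x_at had signals of 2406, 1981 and 2288 in TH237, against 24918, 27370 and 29320 in T20. In T183 they were 8.87, 1.35 and 12 and in T195 7084, 10617 and 9926, against 22476, 19058 and 23262 in Chris. No array of an alloplasmic line overlapped its control, and the 3 alloplasmic lines lay at 3 separate levels. The differences were -3.60 ± 0.20 in TH237, -9.87 ± 0.20 in T183 and -1.24 ± 0.20 in T195, all called lower. The call in T195 was lost without T195 replicate 1 or 3 or Chris replicate 1 or 3, at differences of -1.07, -1.31, -1.21 and -1.19. All T183 arrays lay below the 55th percentile, so that the value for T183 is not a measured size, and with that percentile in place of the dim signals the level in T183 was at least 212-fold lower than in Chris.

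The ABC transporter permease probe set of the same cluster, TaAffx.128795.12.S1_x_at, is annotated as the membrane part of a transporter. Its signals were 1691, 1107 and 1478 in TH237, against 24264, 27405 and 30163 in T20. They were 14.7, 22.4 and 16.2 in T183 and 5832, 5854 and 5751 in T195, against 23135, 19485 and 23818 in Chris. The lines stood in the same order as for rps12. Whether the 2 probe sets read separate transcripts was not tested. Against its control the log2 difference was -4.26 ± 0.17 in TH237, -9.36 ± 0.17 in T183 (at least 218-fold lower, by the same bound) and -1.92 ± 0.17 in T195.

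The other 4 tested members of TaAffx.128795 were called in none of the alloplasmic lines. TaAffx.128795.16.S1_at had signals of 1439, 2235 and 4592 in T183 and 98.4, 106 and 223 in T195, against 443, 1054 and 741 in Chris. It was thus high in the line in which rps12 and the permease were near background, and its arrays in T183 and T195 lay on opposite sides of Chris without overlap. The differences from Chris were 1.78 ± 0.59 in T183 and -2.27 ± 0.59 in T195, both over 2-fold and neither called. In TH237 it had 395, 90.9 and 88.4, against 207, 482 and 169 in T20, with overlapping arrays.

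Of the members of this cluster called in no comparison, TaAffx.128795.21.S1_s_at had the largest difference. Its signals were 32.6, 91.1 and 212 in T183 and 129, 16 and 212 in T195, against 177, 1201 and 289 in Chris. Chris replicate 2 alone was far above the rest, and the arrays of both lines overlapped those of Chris. Its residual SD of 1.31 on the log2 scale was the highest of the 34 members, and the differences of -1.97 ± 0.94 in T183 and -2.03 ± 0.94 in T195 were not called. The remaining members, TaAffx.128795.21.S1_at and TaAffx.128795.28.S1_at, differed from their controls by -0.75 to 0.71 in the alloplasmic lines, with overlapping arrays throughout.

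In cluster TaAffx.128617 the leading gene is ndhF, a membrane subunit of the NDH complex, which passes electrons back to the plastoquinone pool. The ndhF probe set TaAffx.128617.1.S1_x_at had signals of 153, 47.8 and 103 in TH237, against 1627, 5086 and 3550 in T20. They were 94.9, 229 and 204 in T183 and 147, 110 and 145 in T195, against 6259, 5146 and 6798 in Chris. Unlike for rps12, the 3 alloplasmic lines overlapped each other near the same low level. The differences were -4.84 ± 0.42 in TH237, -5.06 ± 0.42 in T183 and -5.34 ± 0.42 in T195. In TH237 only 1 of the 3 arrays was above the 55th percentile, which leaves the size of its difference uncertain.

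A neighbour of ndhF in the plastid genome of grasses is rpl32, which codes for a protein of the large ribosomal subunit. Its probe set TaAffx.128617.4.S1_at had signals of 156, 40.4 and 96.1 in TH237, against 531, 873 and 937 in T20. In T183 they were 93.9, 161 and 84.4 and in T195 458, 914 and 642, against 555, 1116 and 512 in Chris. The signal was thus low in TH237 and T183, whereas T195 overlapped Chris. Both of the low lines were called lower, by a difference of -2.91 ± 0.42 in TH237 and -2.48 ± 0.42 in T183, and T195 differed by -0.08 ± 0.42. Above the 55th percentile were 1 of 3 arrays in TH237 and 2 of 3 in T183, so that these sizes are uncertain too. The call in T183 was lost without any 1 of T183 replicates 1 and 3 and Chris replicates 1, 2 and 3, at differences of -2.39, -2.33, -2.63, -2.14 and -2.69.

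Of the other 7 tested members of this cluster, 1 was called. TaAffx.128617.14.S1_x_at had 51.6, 6.96 and 44 in TH237, against 91, 158 and 190 in T20. All TH237 arrays lay below the 55th percentile, so that the difference of -1.79 ± 0.35 amounts to at least 1.23-fold. Without T20 replicate 3 it was -1.59 and not called. TaAffx.128617.16.S1_at changed the other way, with 9307, 5304 and 7920 in TH237, against 349, 5198 and 1302 in T20. The T20 arrays spread over 14.9-fold and its highest nearly reached the lowest TH237 array, and the difference of 2.43 ± 0.67 was not called. Without T20 replicate 2 it was 3.40 and called. In the Aegilops lines this member had 731, 1272 and 836 in T183 and 768, 875 and 773 in T195, against 990, 708 and 1462 in Chris.

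The brightest member of TaAffx.128617, TaAffx.128617.17.S1_s_at, had signals of 2354, 1563 and 1941 in TH237, against 1825, 5993 and 3951 in T20. It had 4336, 6904 and 3678 in T183 and 3612, 6346 and 5128 in T195, against 5644, 4398 and 4784 in Chris. Its arrays overlapped those of the controls in every alloplasmic line, where those of ndhF in the same cluster did not. The remaining 4 members, TaAffx.128617.2.A1_at, TaAffx.128617.3.S1_x_at, TaAffx.128617.5.S1_at and TaAffx.128617.18.S1_x_at, were called nowhere and stayed within 2-fold of their controls with 1 exception. TaAffx.128617.2.A1_at had 166, 240 and 54.7 in TH237, against 417, 576 and 418 in T20, a difference of -1.69 ± 0.56.

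Cluster TaAffx.128896 holds 3 named genes for large-subunit ribosomal proteins that lie in 1 long transcription unit of the plastid genome. The rpl2 probe set TaAffx.128896.8.A1_at had signals of 2268, 1794 and 2114 in TH237, against 9868, 13840 and 17610 in T20. In T183 they were 14659, 22461 and 15377 and in T195 2649, 5423 and 4306, against 15870, 11727 and 16346 in Chris. TH237 and T195 were low without overlap, and T183 was at the level of Chris. The differences were -2.70 ± 0.28 in TH237, 0.24 ± 0.28 in T183 and -1.87 ± 0.28 in T195. Without Chris replicate 3 the difference in T195 was -1.78 and not called.

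For rpl16 the direction differed between lines. Its probe set TaAffx.128896.1.S1_s_at had 21257, 16409 and 19248 in TH237, against 5990, 10003 and 8778 in T20. It had 11375, 9303 and 12628 in T183 and 7114, 4292 and 4933 in T195, against 13306, 11300 and 14294 in Chris. Every TH237 array was above T20 and every T195 array below Chris. The differences were 1.22 ± 0.23 in TH237, called higher, -0.23 ± 0.23 in T183 and -1.28 ± 0.23 in T195, called lower. Whether the differences of TH237 and T195 are unlike was not tested. The call in T195 was lost without any 1 of T195 replicates 2 and 3 and Chris replicates 1, 2 and 3, at differences of -1.12, -1.22, -1.25, -1.37 and -1.20. With only the arrays of the 2 lines compared in the model, rpl16 was called neither in TH237 nor in T195.

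The rpl23 probe set TaAffx.128896.23.S1_at was low in T195, with 362, 289 and 358, against 1183, 1135 and 1581 in Chris. T183 had 818, 1085 and 1626, overlapping Chris. TH237 had 1155, 2281 and 2435, against 1164, 2622 and 821 in T20, overlapping as well. The difference in T195, -1.89 ± 0.39, was over 2-fold and not called.

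Of the 8 tested members of this cluster without one of these names, 1 was called in an alloplasmic line. TaAffx.128896.21.S1_x_at had 512, 317 and 276 in TH237, against 2194, 3906 and 3778 in T20, a difference of -3.11 ± 0.30. In T183 it had 6036, 3642 and 4744 and in T195 7680, 4151 and 5038, against 7358, 6457 and 7051 in Chris, with differences of -0.56 ± 0.30 and -0.35 ± 0.30.

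A pair of members was high in T183. TaAffx.128896.2.S1_at had 2563, 1619 and 3951 in T183 and 351, 333 and 292 in T195, against 367, 489 and 475 in Chris. TaAffx.128896.22.S1_s_at had 9343, 3899 and 12317 in T183 and 873, 1139 and 929 in T195, against 1208, 1469 and 1039 in Chris. In both, every T183 array exceeded every Chris array and replicate 2 was the lowest of T183. Their differences from Chris of 2.49 ± 0.46 and 2.63 ± 0.50 in T183 were not called. An addition of 64 in place of 16 before the log2 made both of them called, at 2.37 and 2.58, and without T183 replicate 2 TaAffx.128896.22.S1_s_at was called at 3.11.

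In T20 these members varied together, in a pattern that most members shared. TaAffx.128896.2.S1_at had 503, 841 and 642 in TH237, against 128, 702 and 281 in T20. TaAffx.128896.22.S1_s_at had 1797, 2366 and 1741 in TH237, against 371, 2016 and 923 in T20. T20 replicate 1 was the lowest of both and T20 replicate 2 the highest. Among the 34 members tested, T20 replicate 1 was the lowest for 29 and T20 replicate 2 the highest for 22. Over all probe sets tested these shares were 36.6% and 33.6%.

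The brightest member of TaAffx.128896, TaAffx.128896.3.S1_at, overlapped its control in every line. It had 12034, 26344 and 30733 in TH237, against 11894, 13331 and 10993 in T20. It had 6625, 14536 and 9555 in T183 and 7430, 10307 and 9686 in T195, against 9417, 6357 and 15104 in Chris. TaAffx.128896.20.S1_s_at was nearly as bright and had 13404, 8948 and 11333 in TH237, against 8790, 9601 and 11392 in T20. Over all 15 arrays it stayed between 8790 and 15653. TaAffx.128896.15.S1_s_at stayed between 4976 and 10108. The member with the rbcL synonym, TaAffx.128896.17.S1_s_at, averaged 2029 ± 1102 in TH237 and 2160 ± 433 in T20 (SD, n = 3 each).

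The CF0 subunit I belongs to the membrane part of the plastid ATP synthase. Its probe set TaAffx.128565.9.S1_at had signals of 27686, 26400 and 36783 in TH237, against 528, 1084 and 639 in T20. It had 801, 969 and 615 in T183 and 765, 1182 and 1092 in T195, against 836, 773 and 595 in Chris. The signal was thus high in the H. chilense cytoplasm alone among the 5 lines, and both Aegilops lines overlapped Chris. TH237 exceeded T20 by 5.36 ± 0.27, while T183 and T195 differed from Chris by 0.10 ± 0.27 and 0.45 ± 0.27.

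Its neighbours in TaAffx.128565 did not share this rise. The brightest, TaAffx.128565.25.S1_s_at, had 30328, 37400 and 41935 in TH237, against 26775, 30568 and 31581 in T20. In T183 it had 24757, 31750 and 27156 and in T195 22769, 21805 and 22351, against 30333, 23755 and 28537 in Chris. It had the lowest residual SD of the 34 members, 0.17 on the log2 scale, and its differences were 0.29 ± 0.16 in TH237, 0.02 ± 0.16 in T183 and -0.30 ± 0.16 in T195.

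TaAffx.128565.28.S1_x_at was called lower in TH237, with 2923, 2586 and 2315, against 4854, 6728 and 4821 in T20. The difference was -1.05 ± 0.27, close to the 2-fold limit, and the call was lost without any 1 of the 6 arrays of the comparison, at -1.14 to -0.89. TaAffx.128565.17.S1_at had 774, 1307 and 1010 in T195, against 3551, 3161 and 1353 in Chris, a difference of -1.28 ± 0.63 that was not called. In TH237 its arrays read 5186, 858 and 651, so that replicate 1 alone lay above the T20 arrays of 1474, 1868 and 2188.

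Photosystem II contains psbM, a small membrane protein at the contact of its dimer. The pair of primers that the study designed for psbM is shown because this gene had the lowest level of any named gene in TH237 relative to T20, and because the pair was made for the transcript of its probe set. These are primers for quantitative PCR and not the probes of the array. The study measured psbM by this PCR and reported that the genes it tested kept the trend seen on the array. The PCR values were not used here. They are 26 and 25 bases long with 42.3% and 40% GC, and they are given 5′ to 3′ with no base in capitals.
psbM forward primer: gattaagaaagctcgtgggttagaga
psbM reverse primer: ccacactaagaccaaaatgggtttt

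The psbM probe set TaAffx.48564.2.S1_s_at had signals of 148, 146 and 242 in TH237, against 8998, 17180 and 13090 in T20. It had 6940, 14558 and 10180 in T183 and 4698, 9303 and 6420 in T195, against 10251, 9631 and 8625 in Chris. TH237 was low without overlap, and both Aegilops lines overlapped Chris. TH237 was below T20 by a log2 difference of -6.06 ± 0.32, while T183 and T195 differed from Chris by 0.09 ± 0.32 and -0.53 ± 0.32.

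The other tested member of the cluster, TaAffx.48564.1.S1_s_at, stayed bright in TH237, with 12561, 29817 and 28839, against 40667, 47813 and 48038 in T20. Its arrays did not overlap either, and the difference of -1.04 ± 0.49 was not called. In T183 it had 14350, 37163 and 19148 and in T195 8483, 31262 and 28410, against 23362, 18394 and 32584 in Chris. In the same RNA the 2 probe sets thus gave differences of -6.06 and -1.04. Replicate 1 was the lowest array of this member in TH237, T20, T183 and T195.

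The matK gene lies within the intron of a plastid transfer RNA gene and codes for the intron maturase. Its probe set TaAffx.109850.1.A1_s_at had signals of 1924, 2840 and 1962 in TH237, against 4488, 5414 and 6509 in T20. It had 314, 774 and 618 in T183 and 383, 630 and 552 in T195, against 1089, 1157 and 1491 in Chris. Each alloplasmic line was below its own control without overlap, and TH237 nevertheless lay above every Chris array. The differences were -1.29 ± 0.30 in TH237, called lower, and -1.19 ± 0.30 in T183 and -1.24 ± 0.30 in T195, not called. The call in TH237 was lost without any 1 of TH237 replicates 1 and 3 and T20 replicates 1, 2 and 3, at differences of -1.19, -1.20, -1.42, -1.29 and -1.15.

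The second member of this cluster, TaAffx.109850.2.S1_at, had 526, 378 and 198 in TH237, against 536, 714 and 666 in T20. It had 116, 177 and 460 in T183 and averaged 172 ± 14.8 in T195 (SD, n = 3), against 260, 612 and 338 in Chris. The differences of -0.86 ± 0.44, -0.78 ± 0.44 and -1.07 ± 0.44 had the sign of those of matK and were not called.

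The comparison of T20 with Chris asks how the members differ where both lines carry wheat cytoplasm and the nuclear genomes differ. Over all probe sets tested 3.14% were called higher and 4.19% lower in T20. Among the members 1 of 34 (2.94%) was called higher and 2 of 34 (5.88%) lower, shares close to that background. The member called higher was matK, with 4488, 5414 and 6509 in T20, against 1089, 1157 and 1491 in Chris. The difference was 2.12 ± 0.30 (limma, adjusted p = 0.000316), with no overlap of the arrays.

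Called lower were TaAffx.128896.6.A1_at and TaAffx.128896.21.S1_x_at. TaAffx.128896.6.A1_at had 143, 283 and 313 in T20, against 551, 552 and 700 in Chris (-1.29 ± 0.28, limma adjusted p = 0.00761). TaAffx.128896.21.S1_x_at had 2194, 3906 and 3778 in T20, against 7358, 6457 and 7051 in Chris (-1.12 ± 0.30, limma adjusted p = 0.0225). Both lost the call without T20 replicate 1, at -0.97 and -0.85, and TaAffx.128896.21.S1_x_at also without Chris replicate 1 or 3.

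The other named genes differed by less than 2-fold between the euplasmic lines, and none of these differences was called. They ran from -0.96 ± 0.42 for ndhF to 0.42 ± 0.32 for psbM. The difference of rps12 was 0.33 ± 0.20 and that of the permease 0.30 ± 0.17, each without overlap of arrays. For CF0 subunit I it was -0.02 ± 0.27. The 34 members had a median difference of -0.09, against 0.01 over all probe sets tested.

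The comparison of T183 with T195 sets 2 Aegilops cytoplasms side by side in the same nuclear genome, without the Chris arrays. Over all probe sets tested 0.0444% were called higher and 0.0285% lower in T183 than in T195. Among the members 3 of 34 (8.82%) were called higher and 2 of 34 (5.88%) lower. The clusters were chosen on differences of these same lines from Chris, so the excess is not independent of the choice.

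Lower in T183 were rps12 and the permease. The rps12 signals were 8.87, 1.35 and 12 in T183, against 7084, 10617 and 9926 in T195 (-8.63 ± 0.20, limma adjusted p = 1.97e-11), at least 89.5-fold lower with the percentile in place of the dim signals. The permease signals were 14.7, 22.4 and 16.2 in T183, against 5832, 5854 and 5751 in T195 (-7.44 ± 0.17, limma adjusted p = 1.97e-11), at least 57.4-fold lower. Both calls held without each of the 6 arrays.

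Higher in T183 were rpl2 and 2 members without a name. The rpl2 signals (TaAffx.128896.8.A1_at) were 14659, 22461 and 15377 in T183, against 2649, 5423 and 4306 in T195 (2.11 ± 0.28, limma adjusted p = 0.013), and the call held without each of the 6 arrays but not with only the arrays of T183 and T195 in the model (limma adjusted p = 0.176). TaAffx.128795.16.S1_at had 1439, 2235 and 4592 in T183, against 98.4, 106 and 223 in T195 (4.05 ± 0.59, limma adjusted p = 0.0205). TaAffx.128896.2.S1_at had 2563, 1619 and 3951 in T183, against 351, 333 and 292 in T195 (2.91 ± 0.46, limma adjusted p = 0.0322). Without single arrays the adjusted p of TaAffx.128795.16.S1_at passed the limit for T183 replicates 2 and 3 and T195 replicates 1 and 2, at 0.0592, 0.105, 0.0706 and 0.0605. TaAffx.128896.2.S1_at was not called without any 1 of T183 replicates 1 and 3 and T195 replicates 1, 2 and 3, with adjusted p of 0.123, 0.168, 0.0761, 0.0732 and 0.133.

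Among the members without overlap of the arrays that were not called were rpl32, at -2.41 ± 0.42 (limma adjusted p = 0.0629), TaAffx.128896.22.S1_s_at, at 2.95 ± 0.50 (0.0539), rpl23, at 1.71 ± 0.39 (0.196), and rpl16, at 1.05 ± 0.23 (0.166). The ndhF probe set did not separate the lines (0.28 ± 0.42, limma adjusted p = 0.956), and neither did matK (0.06 ± 0.30, 0.99).

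Between replicate arrays of 1 line the members spread more than other probe sets. The median residual SD of the 34 members was 0.55 on the log2 scale, against 0.29 for the other probe sets tested. Among the 17 members at least as bright as the median member it was 0.36, against 0.18 for the 6165 other probe sets of that brightness. Signals differed over 2-fold between replicate arrays for 14 of the 34 members in TH237, 16 in T20, 19 in T183, 8 in T195 and 13 in Chris.

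The members also moved together on single arrays. On T20 replicate 1, 33 of the 34 members lay below the mean of T20, with a median deviation of -0.42 on the log2 scale, and 29 had their lowest T20 signal there. On T183 replicate 1, 26 of the 34 members lay below the mean of T183, with a median deviation of -0.35, and 24 had their lowest T183 signal there. The median deviation of all probe sets tested was -0.01 on T20 replicate 1 and -0.04 on T183 replicate 1. Of all probe sets tested, 36.6% and 40.6% had their lowest signal of the line on these 2 arrays. On the arrays of TH237 the median deviations of the members ran from -0.18 to 0.17. They ran from -0.14 to 0.14 on those of T195 and from -0.08 to 0.03 on those of Chris. Members are not independent of each other, and the part of RNA quality or leaf age in these deviations was not tested.

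Probe sets of rbcL, which codes for the large subunit of Rubisco, were set beside the members. Through the synonyms of the platform's genes 27 probe sets that are no members were assigned to rbcL, of which 12 were tested. RefSeq places the gene with this synonym on a nuclear chromosome, and whether the probe sets read its copy or the plastid gene was not tested. In TH237 1 of the 12 was called higher and 0 lower, with a median difference of 0.88. At an unadjusted p of at most 0.05 and 2-fold, limma listed 3 as higher and 0 as lower in TH237. There 6 of the 12 lay within 2-fold of T20. In T183 and T195 limma called 0 of the 12, listed 0 at an unadjusted p of at most 0.05 and 2-fold, and gave medians of 0.20 and -0.30. Between T20 and Chris the median was 0.07, and between T183 and T195 0.27, with 0 of the 12 called in either. On T20 replicate 1, 11 of these 12 probe sets lay below the mean of T20, with a median deviation of -0.53. The part of this array in the TH237 median was not tested. On T183 replicate 1 the members and these probe sets deviated the same way (-0.35 and -0.19). They deviated in opposite ways on TH237 replicate 1 (0.17 and -0.18), T195 replicate 1 (-0.14 and 0.16) and Chris replicate 1 (-0.08 and 0.23). The 12 probe sets share 1 gene and are not independent readings.

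On the arrays as a whole, medians ran from 67.3 to 94.9, and no pair of arrays held the same values. All 7 leaf markers (Rubisco small subunit and chlorophyll-binding proteins of light-harvesting complex II), which the study had listed as changed in these same samples, were above the 55th percentile on every array of TH237 and of T20. In T183 and T195, 2 and 4 of them were above it on every array and 3 were below it on every array of each line, against 4 above and 0 below in Chris. Their summed signal ran from 44513 to 49342 in TH237, against 10821 to 16182 in T20. It ran from 2549 to 3105 in T183 and from 3309 to 9661 in T195, against 4631 to 10906 in Chris. Of 11 probe sets for storage proteins of the grain, at most 1 was above the percentile on every array of a line, and their summed signal stayed between 256 and 557. The part of these nuclear leaf genes in the values of the members was not tested.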

How the data were processed

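Expression was measured on 15 Affymetrix arrays, 3 biological replicates of bulked plants for each of 5 lines, grouped by their labels. The deposited intensity values are MAS 5.0 signals, which the authors had made on the linear scale with each array at the same trimmed mean, without quantile normalization. The version of MAS 5.0 is not given in the sources used here, and the RMA values of the paper's own comparisons were not used. The 111 control probe sets were left out. With R 4.3.3 and limma 3.58.1 (lmFit and eBayes), 1 model of 5 groups was fitted to log2(signal + 16) of 31555 probe sets, those with at least 3 arrays on which they exceeded the 55th percentile (10 residual degrees of freedom), and p-values were adjusted over all of these. The p-values measure the spread between these arrays, and 3 arrays per line limit the precision. The code was tested on simulated data.

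The members and lists were chosen with earlier results of these data known. Array values were given for 25 members, which are those with a gene name, those called in any comparison and, in each cluster, the brightest member and the one called nowhere with the largest difference. Other members that the text names were chosen after their values were seen. Where all arrays of a line were below the 55th percentile, a bound was computed after such values had been replaced by the percentile itself, on means of log2 signals. A list of plastid genes matched no symbol of the platform, so synonyms were used in a step added after the files had been read. The primers came from the supplementary tables. Over all probe sets tested, replicate numbers showed no pairing of the arrays. Alternatives covered scaling, the value added, the filter, the methods' t-test, the arrays in the model, a replicate block and the removal of each array.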

Additional observations from a re-analysis of the deposited data

Results flagged for a closer look

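For 5 members the difference between T183 and T195, which share the nuclear genome and differ in cytoplasm, passed the limma test of the difference itself. On the log2 scale rps12 stood at -8.63 and the permease at -7.44 (T183 below T195), where all T183 arrays were below the 55th percentile and the bounds are at least 89.5-fold and at least 57.4-fold lower. TaAffx.128795.16.S1_at stood at 4.05, TaAffx.128896.2.S1_at at 2.91 and rpl2 at 2.11 (T183 above T195). The clusters had been chosen on differences of these lines from Chris, so these results are not independent of the choice. Every array of rpl16 moved 1 way in TH237 against T20 (1.22) and the opposite way in T195 against Chris (-1.28), and the difference between the 2 comparisons was not tested. With only the arrays of the 2 lines compared in the model, neither of these was called.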

How the results depend on the processing

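The methods' t-test was run here on the MAS 5.0 values with the percentile filter, and adjusted over all probe sets kept. It called 0 members for TH237 against T20, 1 for T183 against Chris and 0 for T195 against Chris, in place of 12, 4 and 5. For T20 against Chris it called 1 and for T183 against T195 0, in place of 3 and 5. At an unadjusted p of at most 0.05 and 2-fold it listed 12, 7, 8, 3 and 9. For this test the numbers over all probe sets tested were not counted, so nothing is read from these. The paper ran its t-test on RMA values after a filter on present calls. It reported rps12, the permease and ndhF lower in every alloplasmic line, and psbM lower and CF0 subunit I higher in TH237. The t-test counts given here do not stand for that result. With limma and no filter, 3 members were called for T195 against Chris and 3 for T183 against T195. With only the arrays of the 2 lines compared, 3 and 2 were called. With 1 array left out, the counts ran from 9 to 12 for TH237 against T20, from 3 to 5 for T183 against Chris, from 2 to 4 for T195 against Chris, from 1 to 3 for T20 against Chris and from 3 to 5 for T183 against T195. For T195 against Chris the count was 3 without T195 replicate 3, 3 without Chris replicate 1 and 2 without Chris replicate 3. For T20 against Chris it was 1 without T20 replicate 1. For T183 against T195 it was 3 without T183 replicate 3, T195 replicate 1 or T195 replicate 2. The cause was not tested.

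With the replicate block, 12, 3, 4, 3 and 5 members were called in these 5 comparisons. Over all probe sets tested, the residuals of 30 pairs of arrays with the same number had a mean correlation of 0 (from -0.2 to 0.22). For 60 pairs with other numbers it was 0 as well (from -0.21 to 0.25). Of 15 arrays, 3 had their best match in an array of the same number. Among the 34 members, replicate 1 was most often the lowest in T20 (29), T183 (24) and T195 (19). In TH237 that was replicate 2 (17), and in Chris replicates 1 and 2 were equal (14 each). Pairing among the members alone was not tested. The reported fit held 125 values of named members, of which 12, 4, 5, 3 and 5 were called in the 5 comparisons. Of 1865 values of named members under the alternatives, none that was called changed sign, 91 lost their call and 19 gained one. Since only a value called in the reported fit can lose its call, the 91 are not a share of the 1865. With the methods' t-test left out, 64 lost their call. Quantile normalization and median centring moved the median of all probe sets by at most 0.09 on the log2 scale, and neither changed the sign of a called value. Signals below the 55th percentile limit what can be said of rps12 and the permease in T183 and of TaAffx.128617.14.S1_x_at in TH237, where no array was above it, and of ndhF and rpl32 in TH237, where 1 of 3 arrays was, and rpl32 in T183, where 2 of 3 were.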
